A study of Mus musculus with 12 samples.

Results

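β-catenin occupied 4233 intergenic positions in mouse forelimb buds that lay far from promoters and outside every consensus H3K27ac peak. They were selected on measured values from the consensus list of summits, the highest points of called peaks, in vehicle-treated buds. A summit was kept when it lay at least 10 kb and less than 100 kb from the nearest annotated transcription start site (TSS), outside all protein-coding gene bodies, and outside the consensus H3K27ac peaks of both treatments. Of the 16189 β-catenin summits on chromosomes 1 to 19 and X, 4233 met this rule, and they are called unmarked intergenic summits here. Of these, 448 lay inside the body of an annotated gene that is not protein-coding, and 3785 lay outside the bodies of all annotated genes.

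Binding of β-catenin, the nuclear effector of canonical WNT signalling, and the histone mark H3K27ac were profiled by ChIP-seq in forelimb buds of wild-type Swiss Albino mouse embryos. Pregnant females were injected at E10.5 with DMSO vehicle or with C59, which inhibits porcupine and so keeps cells from secreting WNT ligands, and buds were dissected 6 h later and pooled for each library. Each antibody and treatment had 2 biological replicate libraries. All embryos were wild type, whole buds were used, and cell types were not separated.

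β-catenin does not bind DNA itself. It is brought to cis-regulatory modules (CRMs) by TCF/LEF factors, which recognise a core sequence read as CTTTGAT or CTTTGAA on the other strand. H3K27ac is a mark of active promoters and enhancers, and it is deposited on nucleosomes beside a factor-bound stretch. In the limb bud, canonical WNT signals from the ectoderm keep the mesenchyme proliferating and act with FGF, BMP and SHH signals in outgrowth and patterning.

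Windows of 200 bp around the 5 strongest unmarked intergenic summits with a TCF/LEF core are shown. The strongest carried 3 cores and the other 4 carried 2. Such windows were uncommon: 2 or more cores were in 4.58% of the 4233 unmarked intergenic windows and 3.71% of all 16189. The share was 6.48% in intergenic summits without H3K27ac at 100 kb or more. The windows shown are from the plus strand of mm10, and each is named by its nearest protein-coding gene. The capitals mark ATCAAAG or TTCAAAG on either strand.
Slitrk6 summit, chr14:110078361-110078560: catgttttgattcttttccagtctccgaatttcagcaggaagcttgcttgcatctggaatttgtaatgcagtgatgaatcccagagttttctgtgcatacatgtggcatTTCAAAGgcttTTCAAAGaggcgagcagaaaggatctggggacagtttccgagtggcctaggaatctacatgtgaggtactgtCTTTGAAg
Fam49a summit, chr12:12589026-12589225: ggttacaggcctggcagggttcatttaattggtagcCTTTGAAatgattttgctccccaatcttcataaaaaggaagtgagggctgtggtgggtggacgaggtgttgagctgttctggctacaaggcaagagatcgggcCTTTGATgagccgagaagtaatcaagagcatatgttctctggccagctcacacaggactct
Hace1 summit, chr10:46939959-46940158: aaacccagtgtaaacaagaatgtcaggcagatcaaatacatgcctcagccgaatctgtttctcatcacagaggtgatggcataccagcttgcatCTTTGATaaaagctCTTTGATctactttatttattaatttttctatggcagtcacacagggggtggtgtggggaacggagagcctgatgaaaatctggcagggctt
Igfbp7 summit, chr5:77865537-77865736: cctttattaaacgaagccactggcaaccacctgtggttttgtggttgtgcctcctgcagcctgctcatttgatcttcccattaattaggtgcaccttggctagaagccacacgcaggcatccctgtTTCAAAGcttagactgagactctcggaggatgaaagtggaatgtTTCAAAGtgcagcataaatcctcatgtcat
Scg2 summit, chr1:79183846-79184045: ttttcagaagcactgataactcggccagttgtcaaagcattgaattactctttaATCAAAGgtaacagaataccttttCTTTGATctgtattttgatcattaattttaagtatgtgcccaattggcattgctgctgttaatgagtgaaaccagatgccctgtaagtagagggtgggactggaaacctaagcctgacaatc

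The next windows, of 41 bp centred on the core nearest to the summit, show strong unmarked intergenic summits whose nearest protein-coding gene was on a list of WNT, BMP, Hedgehog, limb, cartilage or muscle genes. They are from the plus strand of mm10, with cores in capitals.
Dkk1 summit, chr19:30393878-30393918: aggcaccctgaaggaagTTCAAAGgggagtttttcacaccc
distal Msx2 summit, chr13:53755310-53755350: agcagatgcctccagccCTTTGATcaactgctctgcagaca
proximal Msx2 summit, chr13:53576448-53576488: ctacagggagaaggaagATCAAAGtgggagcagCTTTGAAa
Hand2 summit, chr8:57254791-57254831: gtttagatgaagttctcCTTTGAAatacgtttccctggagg
Epha3 summit, chr16:63452499-63452539: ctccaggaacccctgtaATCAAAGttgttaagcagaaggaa
Col9a1 summit, chr1:24142382-24142422: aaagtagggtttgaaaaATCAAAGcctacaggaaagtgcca
Six2 summit, chr17:85847913-85847953: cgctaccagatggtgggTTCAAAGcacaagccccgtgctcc

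The 4233 summits formed 3973 peak regions. Their consensus fold enrichment over the expected coverage had a median of 7.13, and the 10th and 90th percentiles were 4.67 and 13.4. In the replicate libraries the median was 6.23 in DMSO replicate 1 and 6.48 in DMSO replicate 2. Only 75 summits had a consensus fold of 20 or more, 919 lay between 10 and 20, 2590 between 5 and 10, and 649 under 5. The higher of the 2 replicate folds exceeded the lower by a median factor of 1.18, and by 1.51 at the 90th percentile. Across the 4233 summits, which shared both libraries, the log2 folds of the replicates had a Pearson r of 0.810. The coverage behind these values was modest, with a median of 17 overlapping fragments in replicate 1 and 20 in replicate 2, and the 10th percentile was 11 in both.

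**Figure D1:**
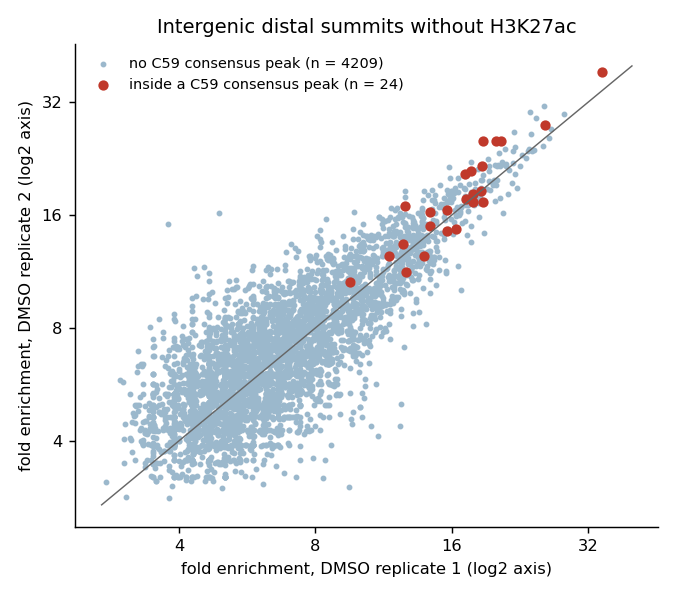
Fold enrichment of each unmarked intergenic summit in DMSO replicate 1 (x axis, log2) and replicate 2 (y axis, log2), with the line of equality; red points are the 24 summits inside a C59 consensus peak. Most points lie near the line, and the red points sit in the upper right, at consensus folds of 11.2 or more.

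The strongest summit, chr12:3109975, stood apart from the others. Summits on blacklisted sequence were not removed here, and whether this summit is on such sequence was not tested. Its window was soft-masked as repeat sequence in all 200 bases, it had no TCF/LEF core, and its fold was 34.4 and 38.5 in the DMSO replicates and 34.9 and 38.4 in the C59 replicates. The values after C59 lay within the range of the DMSO values, which no other summit in a C59 consensus peak showed. The next was the Slitrk6 summit, 677 kb from that gene, at 28.4 and 29.7 in the DMSO replicates with 145 and 182 fragments. It was listed in neither C59 replicate. The Fam49a summit had folds of 25.6 and 31.3 in the DMSO replicates and was listed in C59 replicate 1 alone, at 5.30. The Hace1 summit, 1263 kb from that gene, had folds of 23.8 and 30.1, and the Igfbp7 summit 26.5 and 27.2. Neither was listed after C59.

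Among the 10 strongest, the summit 116 kb upstream of Twist2, a bHLH factor of limb mesenchyme, had folds of 24.5 and 29.1 and no TCF/LEF core, and it lay 0.111 kb from an H3K27ac peak. The Nr2f2 summit, 302 kb upstream of this nuclear receptor gene, had folds of 26.2 and 25.7 and no core. The Scg2 summit had 21.9 and 26.6, and the Ndst4 summit, near a gene of heparan sulphate modification, 24.0 and 26.3, and the latter was listed in C59 replicate 2 alone, at 7.01. The Naaladl2 summit had 25.7 and 27.9 with no core, and after C59 it was still listed at 4.595 and 7.72. Thus 6 of the 10 strongest carried a core.

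Of the 4233 windows, 1363 held at least 1 TCF/LEF core, or 32.2% (95% Wilson interval 30.8 to 33.6), against 8.82% (8.24 to 9.45) of 8466 windows placed 2 kb to either side. The difference was 23.4 percentage points (95% Newcombe interval 21.9 to 24.9). In detail, 1169 windows held 1 core, 172 held 2, 21 held 3 and 1 held 4 or more. These intervals cover counting error over summits only, because summits of the same 2 libraries are not replicates. Cores gathered at the summit: 41.2% of the 1580 cores were centred within 25 bp of it and 70.6% within 50 bp, and the median distance was 32 bp.

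**Figure D2:**
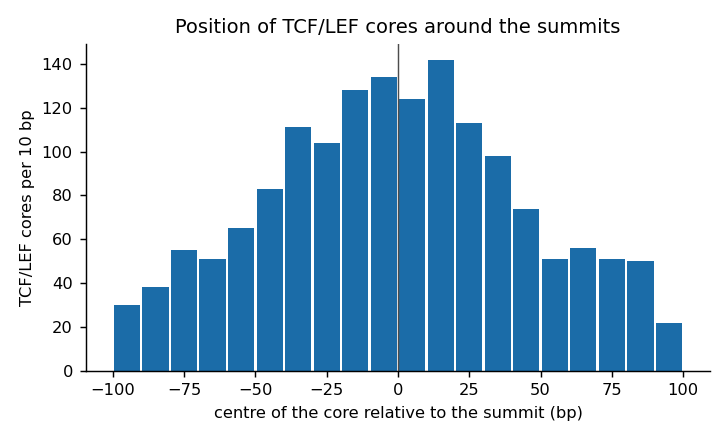
Number of TCF/LEF cores per 10 bp (y axis) by distance of the core's centre from the summit in bp (x axis) over the 4233 unmarked intergenic windows. Counts reach 142 in the bin 10 to 19 bp from the summit and fall to 22 and 30 in the outermost bins.

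The share with a core rose with enrichment. It was 24.0% of 649 summits with a fold under 5, 30.2% of 2590 between 5 and 10, 41.6% of 919 between 10 and 20, and 57.3% (46.1 to 67.9) of the 75 at 20 or more. Summits with a core had a median fold of 7.83, against 6.88 without one. The bases around the core were also not those of cores nearby. In 40.8% of the cores a C or G stood both just before and just after ATCAAAG or TTCAAAG, as against 20.4% of 780 cores in the flanking windows, a difference of 20.4 points (16.6 to 24.0). The base 2 positions before the core was A in 50.3% against 29.5%, a difference of 20.8 points (16.7 to 24.7). ATCAAAG made up 50.2% of the cores and 41.2% of those in flanking windows, a difference of 9.04 points (4.77 to 13.2).

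Summits that met the same distance limits but lay inside an H3K27ac peak were compared next, to ask whether the acetylated CRMs carried the same sequence. A core was less frequent there, in 22.05% (19.4 to 24.9) of 880 windows, and the difference from the unmarked intergenic summits was 10.2 points (6.98 to 13.1). It was 11.7 points (4.97 to 17.1) at folds under 5 and 11.4 points (7.40 to 15.01) between 5 and 10. Between 10 and 20 it was 3.93 points with an interval of -3.88 to 11.3, so a difference was not resolved among the stronger summits. The shares in 2726 summits without H3K27ac within protein-coding gene bodies (30.7%) and in 725 intergenic ones at 100 kb or more (31.4%) differed from the unmarked intergenic share by 1.495 points (-0.746 to 3.71) and 0.751 points (-2.99 to 4.32). Of all 16189 summits, 28.6% had a core. In windows 2 kb to either side of the acetylated summits the core share was 7.05%, beside 8.82% for the unmarked intergenic ones. The median G+C content was 48.5% in the acetylated and 43.5% in the unmarked intergenic windows, and its part in the core difference was not tested.

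**Figure D3:**
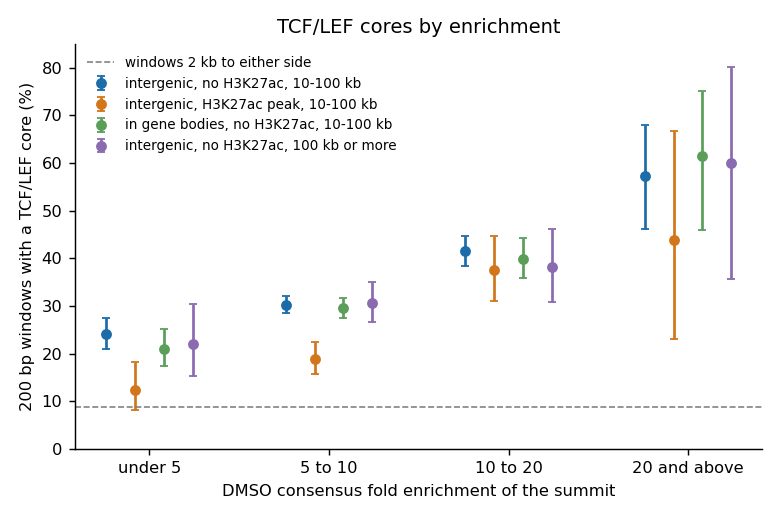
Percent of 200 bp windows with a TCF/LEF core (y axis) by DMSO consensus fold enrichment (x axis) in the unmarked intergenic summits and 3 other sets of summits; points are shares, bars are 95% Wilson intervals and the dashed line is the share in windows 2 kb away. The blue points climb from 24.0% to 57.3%, and the orange points of acetylated summits lie below them in the 2 lower bins.

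Words recognised by other limb factors were enriched at the unmarked intergenic summits too. All words were searched on both strands, and some overlap, since a window may hold several. CAGATG, bound by Twist and other bHLH factors, was in 30.2% of windows against 15.7% of flanking windows, and CAGCTG in 18.8% against 7.63%. TAATTA, the homeodomain word, was in 17.2% against 7.60%, CCATAAA, a Hox-type word, in 9.95% against 3.56%, and TGACAG, the word of MEIS factors, in 21.1% against 12.8%. The SOX words AACAAAG and AACAATG, which resemble the TCF/LEF core, were not enriched, at 9.61% against 9.69% (difference -0.0709, interval -1.14 to 1.04). The GATA word AGATAAG was rarer than in the flanks, at 1.32% against 3.402%. Of the remaining families, the AP-1 words TGACTCA and TGAGTCA differed little, at 2.91% against 3.09% (difference -0.189, -0.796 to 0.462). The others were above the flanks by smaller margins: CAATAAA at 9.73% against 5.59%, the TEAD word GGAATG at 14.1% against 11.5%, the CTCF-type words AGGGGGC or AGGTGGC or AGATGGC or AGAGGGC at 14.2% against 10.2%, CCAAT at 30.2% against 28.3%, the ETS word CCGGAAG at 0.898% against 0.508%, and the ZIC/GLI word GGGTGGTC at 0.780% against 0.295%. Among all 4055 words of 7 bases present in at least 2% of the windows, ATCAAAG had the highest ratio to the flanks, 4.61, with 17.2% against 3.73%. The words that followed were GATCAAA at 4.18, which overlaps the core, the homeodomain-type GCAATTA at 4.17, and CCTTTGA at 4.14, which also overlaps the core.

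Set against the acetylated intergenic summits, the unmarked ones more often held TGACAG (21.1% against 13.0%, difference 8.17 points, 5.50 to 10.6), TAATTA (17.2% against 10.6%, difference 6.65, 4.19 to 8.85) and CCATAAA (9.95% against 5.68%, difference 4.26, 2.33 to 5.90). They less often held CAGCTG (18.8% against 23.2%, difference -4.40, -7.52 to -1.47) and the SOX words (9.61% against 12.7%, difference -3.11, -5.63 to -0.871). CCAAT was more frequent by 5.395 points (2.14 to 8.47), while the CTCF-type words (difference -3.44, -6.28 to -0.829) and the ETS word (difference -1.15, -2.34 to -0.330) were less so. The other sets without H3K27ac had like shares of TGACAG, 21.2% within gene bodies and 22.1% at 100 kb or more. TAATTA was in 19.2% of those within gene bodies, above the unmarked intergenic share (difference -1.96, -3.85 to -0.115), and in 18.1% of those at 100 kb or more. Base composition moved with these shares: the median G+C content was 43.5% in the unmarked windows and 48.5% in the acetylated ones, and its part in the differences was not tested. In the flanking windows of the acetylated summits TGACAG stood at 13.0% and TAATTA at 6.14%. Within the unmarked set, windows with a core held TAATTA less often than windows without, 14.4% against 18.6%, a difference of -4.19 points (-6.48 to -1.79). TGACAG did likewise, 18.6% against 22.3%, a difference of -3.77 (-6.29 to -1.16). So did CAGATG (-3.37, -6.26 to -0.412), CAATAAA (-2.67, -4.44 to -0.779) and CCATAAA (-2.44, -4.24 to -0.524). The GATA word was more frequent in windows with a core (0.862, 0.114 to 1.79), and for the other words no difference was resolved.

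The comparison of C59 with DMSO asks how much of this binding depends on secreted WNT. After C59, 24 of the 4233 summits lay inside a consensus β-catenin peak, or 0.567% (0.381 to 0.842). Over all 16189 summits the share was 1.12%, and among the acetylated intergenic summits 1.70%, a difference of -1.14 points (-2.24 to -0.414). By fold, the difference from the acetylated summits was -1.36 points (-2.77 to -0.643) between 5 and 10, with 0 of 2590 against 7 of 516. It was not resolved between 10 and 20 (-1.48, -5.18 to 0.556) or at 20 or more (-1.83, -25.9 to 10.9). In the other sets without H3K27ac the share in a C59 consensus peak was 0.514% within gene bodies (difference 0.0534, -0.340 to 0.398). At 100 kb or more it was 0.966% (difference -0.399, -1.43 to 0.170), so no difference from these 2 sets was resolved. In the separate C59 lists, 47 of the 4233 (1.11%) lay inside a peak of replicate 1 and 53 (1.25%) inside one of replicate 2, beside 1.59% and 1.79% of all summits. Since the 4233 were selected for a call in DMSO, their fall in C59 describes the selection as well, and no test is given. An exact permutation test of 2 against 2 libraries could not go below p = 0.33. The libraries were of like depth, with 2.93 and 3.39 gigabases of fragments in the DMSO replicates and 3.42 and 3.402 in the C59 replicates. The C59 lists needed more evidence, however: at background coverage a call took 11 fragments there and 8 in DMSO. Of the 4233 summits, 3725 exceeded the −log10 p of 5.72 required in C59 in both DMSO replicates, and 24 of these (0.644%) were in a C59 consensus peak.

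Windows of 3 of the 24 summits are shown because they had the highest C59 fold among those with no soft-masked base. The Robo2 and Pck1 windows hold no TCF/LEF core and the Eya1 window holds 1, in capitals; all are from the plus strand of mm10.
Robo2 summit, chr16:74506295-74506494: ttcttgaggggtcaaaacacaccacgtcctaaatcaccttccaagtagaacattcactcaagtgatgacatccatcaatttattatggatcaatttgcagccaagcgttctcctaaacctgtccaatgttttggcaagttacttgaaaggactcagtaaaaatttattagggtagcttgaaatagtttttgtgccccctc
Eya1 summit, chr1:14146077-14146276: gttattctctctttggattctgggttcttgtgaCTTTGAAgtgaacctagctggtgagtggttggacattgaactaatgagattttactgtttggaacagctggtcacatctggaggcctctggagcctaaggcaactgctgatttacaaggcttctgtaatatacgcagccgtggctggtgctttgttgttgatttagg
Pck1 summit, chr2:173171591-173171790: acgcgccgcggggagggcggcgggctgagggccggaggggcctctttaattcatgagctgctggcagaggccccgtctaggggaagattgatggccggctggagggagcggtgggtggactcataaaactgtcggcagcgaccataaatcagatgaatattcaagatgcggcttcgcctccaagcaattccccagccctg

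The 24 summits were among the strongest, with a median DMSO consensus fold of 18.5. None of the 649 summits under a fold of 5 and none of the 2590 between 5 and 10 was in a C59 consensus peak, while 16 of 919 (1.74%) between 10 and 20 and 8 of 75 (10.7%, 5.50 to 19.7) at 20 or more were. Leaving out the repeat summit on chromosome 12, the other 23 had folds of 9.55 to 25.7 (median 17.1) in DMSO replicate 1 and 10.6 to 27.9 (median 17.3) in replicate 2. After C59 the values were 4.06 to 8.56 (median 5.66) in replicate 1 and 4.56 to 8.42 (median 5.68) in replicate 2. In each of the 23 both DMSO folds were above both C59 folds. The C59 consensus fold was 0.231 to 0.505 of the DMSO fold in these 23. A weaker summit that fell by a like factor could go unlisted after C59, so the shares by fold do not separate strength from the calling limit.

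**Figure D4:**
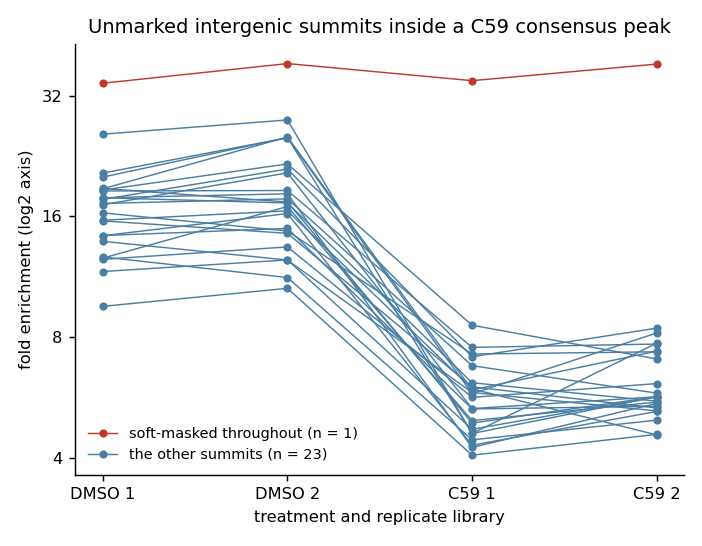
Fold enrichment (y axis, log2) of the 24 unmarked intergenic summits inside a C59 consensus peak in each β-catenin library (x axis); each line is 1 summit and the red line is the summit soft-masked throughout. The 23 blue lines fall from 9.55 to 27.9 in DMSO to 4.06 to 8.56 in C59, and the red line stays between 34.4 and 38.5.

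The Robo2 summit, near a Slit receptor gene, had the highest C59 fold after the repeat: 18.6 and 21.6 in DMSO and 8.56 and 7.05 in C59, with 115 and 143 fragments against 29 and 23. The Eya1 summit, 85.3 kb from this transcriptional coactivator gene, had 20.5 and 25.2 in DMSO against 5.78 and 8.19. The Pck1 summit had 16.3 and 14.7 against 7.26 and 7.35. A summit near Col1a2, a type I collagen gene, had 18.5 and 18.6 against 7.54 and 7.69, and the one near Pkdcc, a secreted kinase of long bone growth, 17.2 and 17.7 against 6.79 and 5.80. The Ap3b1 summit had 17.7 and 21.02 against 7.15 and 8.42, the Setd4 summit 18.8 and 25.3 against 5.91 and 7.38, and the Gsdmc summit 12.5 and 13.4 against 5.66 and 6.12. The Robo2, Eya1 and Pck1 summits lay 94.1, 39.1 and 1.498 kb from an H3K27ac peak, and those of Col1a2 and Pkdcc 0.089 and 0.100 kb. The Ap3b1, Setd4 and Gsdmc summits were 0.094, 0.040 and 0.128 kb from one. A further pair of summits was chosen after their values were seen, for their genes. That nearest to Lmx1b, the determinant of dorsal limb fate, had 11.7 and 12.5 in DMSO against 4.71 and 5.68 in C59. That nearest to Cyp26b1, which degrades retinoic acid in the distal limb, had 9.55 and 10.6 against 4.06 and 4.57.

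A core was found in 6 of the 24 (25%, 12 to 44.9) and in 419 of the 970 summits (43.2%) with a fold of 10 or more that lacked a C59 consensus peak. The difference was -18.2 points with an interval of -31.6 to 1.94, so it was not resolved at this number. CCATAAA was present in 7 of the 24 and in 11.3% of the 970, a difference of 17.8 points (3.41 to 37.9). CCAAT, the word of nuclear factor Y, was present in 2 of the 24 and in 31.0% of the 970, a difference of -22.7 points (-29.4 to -4.95). These 2 words stood out among 15 families compared, with no adjustment for their number.

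Both shares differed with the distance from H3K27ac. The median distance to the nearest consensus H3K27ac peak was 56.0 kb, and 412 kb at the 90th percentile, but 467 summits (11.03%) had such a peak within 1 kb and 349 within 0.2 kb. Of the 24 summits in a C59 consensus peak, 15 were among these 349, at 4.30% (2.62 to 6.97). Beyond 1 kb, 9 of 3766 (0.239%, 0.126 to 0.454) were in such a peak, against 15 of 467 (3.21%, 1.956 to 5.23) within 1 kb, and the difference was 2.97 points (1.70 to 5.00). The split at 1 kb was chosen after the values were seen. Enrichment moved with it, since 34.5% of the near summits and 22.1% of the others had a fold of 10 or more. Among summits at a fold of 10 or more the shares were 9.32% of 161 near and 1.08% of 833 beyond, a difference of 8.24 points (4.52 to 13.7). The summits next to H3K27ac also had fewer cores: 16.6% (13.1 to 20.9) within 0.2 kb, 26.3% between 0.2 and 1 kb, 31.3% between 1 and 10 kb, 33.4% between 10 and 50 kb and 34.5% (32.5 to 36.5) at 50 kb or more. At a fold of 10 or more it was 24.8% within 1 kb and 46.2% beyond, a difference of -21.4 points (-28.3 to -13.4).

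**Figure D5:**
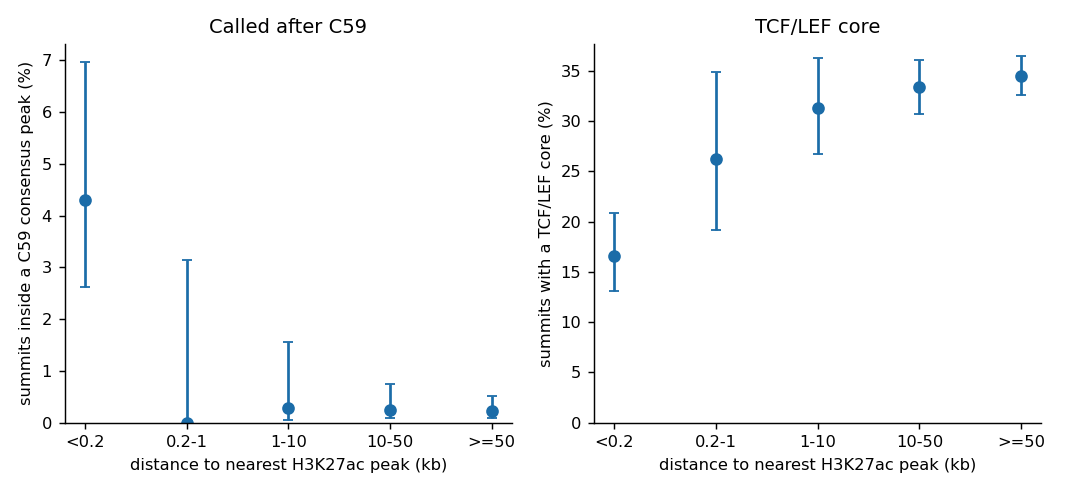
Percent of unmarked intergenic summits inside a C59 consensus peak (left y axis) and with a TCF/LEF core (right y axis) by distance to the nearest consensus H3K27ac peak in kb (x axes); bars are 95% Wilson intervals. The left share is 4.30% under 0.2 kb and at most 0.279% in the other bins, while the right share climbs from 16.6% to 34.5%.

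The absence of H3K27ac was checked in the single libraries, although the rule used the consensus of the same libraries. In DMSO 36 and 53 of the 4233 summits lay inside a peak of replicates 1 and 2, and in C59 53 and 25. Over all summits these shares were 19.2%, 20.1%, 21.4% and 19.1%. In total 4079 summits lay in no H3K27ac peak of any of the 4 lists, 141 in 1 list and 13 in 2, and none in 3 or 4. Of those in some list, 76 lay in a DMSO list only and 65 in a C59 list only. Of the 467 summits near a consensus peak, 71 had an H3K27ac peak within 1 kb on both sides, of which 6 were in a C59 consensus peak.

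The summits were far from genes. The nearest TSS, at a median of 32.1 kb, was that of a long intergenic RNA for 1237 summits, a processed pseudogene for 1207 and a protein-coding gene for 818 (19.3%). The nearest protein-coding TSS lay at a median of 125 kb, beside 76.5 kb for the acetylated summits and 43.8 kb for all summits. For summits without H3K27ac this median was 41.7 kb within gene bodies and 306 kb at 100 kb or more. A gene named here is thus the nearest and need not be the target. By that measure the summits fell to 1907 genes, with 54.9% upstream of the TSS. The limb patterning lists hold WNT, BMP, FGF, Hedgehog, Hox, limb transcription factor and ectodermal ridge genes. A gene on them was the nearest for 333 summits (7.87%, 7.09 to 8.72), against 6.20% of all summits. The listed genes make up 1.21% of protein-coding genes. Of the 262 genes on those lists, 105 (40.1%) had at least 1 unmarked summit, against 8.78% of all protein-coding genes. The share of listed genes with a β-catenin summit of any kind was not computed. Whether the 40.1% is particular to the unmarked summits was therefore not tested. The lists were chosen with results of these data known. The share of summits nearest to a listed gene was 7.39% among the acetylated summits, a difference of 0.480 points (-1.59 to 2.25). Among summits without H3K27ac in gene bodies it was 3.85%, a difference of 4.01 points (2.91 to 5.09). Among those at 100 kb or more it was 9.10%, a difference of -1.24 points (-3.68 to 0.830).

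Limb transcription factors held most of these, with 174 summits at 40 of 57 genes, of which 56 held a core and 2 were in a C59 consensus peak. This list also holds Eph receptors and retinoic acid genes. Its share, 4.11%, was above the 1.93% of acetylated summits by 2.18 points (0.910 to 3.14), beside 2.57% of all summits. Among the intergenic summits at 100 kb or more it was higher, 5.66%, a difference of -1.54 points with an interval of -3.55 to 0.0493. Its median fold was 7.24, beside 7.13 over all 4233 summits. Osr1, a zinc finger factor of lateral plate mesenchyme, had 12 summits with folds of 4.48 to 21.1, 3 of them with a core. Tbx3, a T-box factor of the limb margins, also had 12, at 4.72 to 10.46. Irx1, a homeobox gene, had 11 summits at folds of 3.58 to 12.9, 1 of them with a core. Irx5 had 7, of which 5 held a core, at folds of 5.00 to 20.6. The strongest were the Twist2 summit, the Tbx18 summit at 22.3 and 18.9 in the DMSO replicates, and the Epha3 summit at 15.8 and 21.5. The Epha3 summit held 2 cores and was listed in C59 replicate 1 alone, at 7.07.

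Genes of WNT feedback and known targets had 27 summits at 10 of 21 genes, and 14 (51.9%) held a core, beside 32.2% of all 4233. These were 0.638% of the unmarked summits, near the 0.667% of all summits and under the 1.36% of acetylated ones, a difference of -0.726 points (-1.75 to -0.0763). Mycn had 7, all without a core and with folds of 4.79 to 14.6, while Myc had 5 at 4.73 to 12.7, of which 4 held a core. Apcdd1, a membrane inhibitor of WNT, had 4, 3 of them with a core. The Dkk1 summit, 156 kb from this secreted WNT antagonist gene, had 14.2 and 12.9 in the DMSO replicates with 48 and 43 fragments. WNT ligands, receptors and antagonists had 20 summits, of which 2 held a core. Their share, 0.472%, stood beside 0.642% of all summits. It was under the 1.25% of acetylated summits (difference -0.778, -1.77 to -0.170) and the 1.24% of intergenic summits at 100 kb or more (difference -0.769, -1.88 to -0.128). The strongest of these lay 317 kb from Rspo3, which amplifies WNT signals, at 11.5 and 12.4. The summit near Fzd10, a WNT receptor gene, had 12.1 and 11.04.

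The BMP list had 30 summits at 10 of 31 genes, with a median fold of 7.98 and 10 with a core, and its share of 0.709% was close to the 0.710% of all summits. Msx1 and Msx2, homeobox targets of BMP signalling, had 5 and 7. The strongest Msx1 summit, 93.5 kb upstream, had 20.3 and 23.5 in the DMSO replicates and no core. The distal Msx2 summit, 282 kb upstream, had 21.4 and 21.1 and was listed in C59 replicate 2 alone, at 4.61. The proximal one, 103 kb upstream, held 3 cores and had 14.5 and 15.6. The FGF list had 39 summits (0.921%, beside 0.679% of all) at 16 of 26 genes, 12 of them with a core, with 6 at Fgfr2 and 4 at Dusp6, a feedback phosphatase of FGF signalling. The strongest on this list was near Spry4, a feedback inhibitor of FGF signalling, at 13.5 and 11.1. The Spred1 summit, near a gene that restrains FGF signalling, had 7.89 and 11.4, a core, and an H3K27ac peak 0.141 kb away. On the Hedgehog list, with 0.709% of the unmarked and 0.5003% of all summits, 11 of 30 summits fell to Gas1, a SHH co-receptor, at 4.06 to 15.05. The Hand2 summit, 66.2 kb upstream of this posterior determinant, held 2 cores and had 17.1 and 17.95. Hox and Evx genes had 4 summits (0.0945%, beside 0.266% of all), the strongest near Hoxc4 at 4.01 and 6.14.

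Chondrogenic genes had 29 summits at 11 of 21 genes (0.685%, beside 0.760% of all summits), 8 of them at Sox9, with the strongest Sox9 summit 657 kb upstream at 13.8 and 13.6. The strongest summit near Runx3, a Runt factor gene, had 10.2 and 9.42. The Col9a1 summit had 13.4 and 13.3. The muscle precursor list, which also holds the ligand genes Hgf and Cxcl12, had 24 summits (0.567%, beside 0.371% of all). Six2 led with 7, Hgf had 6 and Cxcl12 had 3, and the Six2 summit shown above had 12.6 and 15.3. The strongest Hgf summit had 14.1 and 14.0, and it was listed in C59 replicate 2 alone, at 4.46. Ectoderm and ridge genes had 9 (0.213%, beside 0.161% of all), 1 of them with a core, the strongest near Edn1 at 9.68 and 10.3, and markers of endothelium, blood and nerve 22 (0.520%, beside 0.420% of all), of which 8 were at Runx1t1, with the strongest at 15.2 and 17.1. The 3 genes with the most unmarked summits were on none of the lists: Efnb2, an ephrin ligand gene, with 26 (7 with a core, folds of 3.42 to 22.8), Zfp608 with 24 (7 with a core, 3.85 to 16.2) and Adgrl2 with 22 (5 with a core, 3.93 to 12.8). The 26 summits of Efnb2 were spread from 94.5 to 1685 kb from its TSS.

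Joined at 10 kb, the 4233 summits formed 3539 loci, of which 555 held 2 or more summits and 109 held 3 or more. In all, 7 loci held 5. That of Hes1, a Notch effector gene, spanned 6.48 kb and had a core at 4 of its 5 summits, with folds of only 3.68 to 6.28. The Gas1 and Tut7 locus spanned 16.6 kb with folds of 5.84 to 13.9 and 1 core. The Rplp1 locus spanned 14.5 kb with folds of 5.81 to 14.7, and a core at 3 of its 5. The Thap1 locus had a core at 2 of its 5, with folds of 3.23 to 13.1, and alone of the 7 had a summit in a C59 consensus peak. The BC052040, Pip4k2a and Nt5e loci each had a core at 1 of 5 summits. Their folds were 2.77 to 9.97, 4.36 to 9.05 and 3.24 to 8.21.

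At the limits of the rule, the summit nearest inside 10 kb lay 10002 bp from a TSS with a fold of 6.39, and the nearest outside lay 9996 bp away with 7.92. At the upper limit the nearest inside lay at 99991 bp with 7.17 and the nearest outside at 100003 bp with 7.96. At the H3K27ac edge a summit 1 bp outside a peak had 4.72, and 1 bp inside another peak 4.63.

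On chromosome X there were 4.09 unmarked intergenic summits per 10 Mb, against 10.2 to 23.7 on the autosomes. The other β-catenin summits showed the same order, 9.41 against 41.5 to 56.6. As a check of the tissue, H3K27ac peaks within 1 kb of a TSS of marker genes were counted. Tbx5 and all 4 limb mesenchyme markers had one in each of the 4 H3K27ac lists, although the Tbx5 TSS base itself was covered in none. Over all protein-coding genes 52.7% to 54.9% had a peak within 1 kb, so these counts are a weak guide to the tissue. Of the 2 hindlimb markers, Tbx4 had a peak in every list and Pitx1 in none. None of the 4 ectoderm and 3 neural markers had one in any list, 1 or 2 of the 5 endothelium and blood markers did, and 1 or 2 of the 2 muscle precursor markers did. The part of these minor cell types in the unmarked summits was not tested.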

How the data were processed

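β-catenin and H3K27ac ChIP-seq libraries were made by the authors from pooled forelimb buds, 2 per antibody and treatment. The submitters' processing notes list cutadapt 4.1, Bowtie2 2.4.5, MACS2 2.2.7.1 and Picard 2.27.4 on mm10. Peaks were called without input (genome size 1870000000). For a consensus list, duplicates were removed, replicates were sampled to equal size and called together, and summits found in both replicates were kept. The blacklist was not used here, so summits on it were not removed. The authors deposited, per replicate and as a consensus of both, the fold enrichment (a ratio of coverage to the expected coverage), the −log10 p and −log10 q of each summit and its offset. The 4 input samples were not analysed here.

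Summits were classified with the GENCODE M21 annotation and windows of 200 bp were read from GRCm38 (mm10) with Python 3.11.15, numpy 2.4.6 and pysam 0.24.0. A summit's value in a replicate is that of the listed row whose region holds it and whose own summit is nearest. Fragment coverage and depth were solved from fold and p with scipy 1.17.1 (tolerance 0.01 in −log10 p, up to 250), where the background is the lowest expected coverage. Shares carry 95% Wilson intervals, and differences Newcombe intervals; no p-value was computed, and intervals cover counting error only. The functions for peak overlap, nearest points, word search, Wilson and Newcombe intervals and coverage were tested on simulated data.

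Named summits were drawn from the 10 strongest, the 10 with the highest C59 fold, the 3 strongest of each of 11 gene lists, the 3 genes and loci with most summits (ties kept), and those nearest the limits. Genes counted within a list are those with most summits or were chosen after their values were seen. The members, lists and 15 word families were chosen with earlier results of these data known. Alternatives changed the limits, annotation, H3K27ac mask, libraries, windows and words.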

Additional observations from a re-analysis of the deposited data

How the results depend on the processing

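The difference in TCF/LEF core share between unmarked and acetylated intergenic summits kept its sign and an interval above 0 in all 17 alternatives, from 6.25 points with windows of 100 bp to 12.8 with H3K27ac peaks extended by 1 kb. With protein-coding TSSs only, 2433 summits met the rule and 6.86% were nearest to a limb patterning gene. Under the rule as stated, 4.02% had the TSS of any limb patterning gene within 100 kb. With H3K27ac peaks extended by 1 kb, 0.239% were in a C59 consensus peak and 33.8% had a core, and a −log10 q of at least 10 gave 34.5% with a core and a median fold of 8.11. The core share was 23.4% in windows of 100 bp, 39.5% in the widest windows tried and 17.2% for ATCAAAG alone. The median fold of the strongest summit of each region was 7.34. A peak in either C59 replicate held 1.77% of the summits. Leaving out the repeat summit, chosen after seeing the data, gave 0.543%.

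Leaving out each DMSO replicate in turn, with the other replicate's own list in place of the consensus, gave 5069 to 6481 summits, a core in 29.3% to 30.3% and a median fold of 5.33 to 5.77. Over the lists that left out a DMSO or a C59 replicate, the share in a C59 peak ran from 0.386% to 1.25%. The limb patterning share ran from 7.14% to 7.54% and the core difference from 8.89 to 9.30 points. No paired analysis was possible because the results come from peak lists with no model fit.

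The calling threshold limits the C59 values, although the libraries were of like depth. A C59 summit at background coverage with fewer than 11 fragments would not be listed, and a summit that is not listed is not a measured 0. The cause of the values that moved was not tested.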
